A study of Lotus japonicus with 6 samples.

Results

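Isoflavone synthase, vestitone reductase and pterocarpan reductase stand at the start and at the end of the route by which Lotus makes the phytoalexin vestitol. The array held 9 genes with the codes of these enzymes, out of 2881 genes in all. They were taken by name alone: 4 names starting with CYP93C (isoflavone synthase), 3 starting with VR (vestitone reductase) and 2 starting with PTR (pterocarpan reductase). Each gene had 2 probes, which gave 18 probes and 66 spots. All 18 probes were well above background on all 6 arrays, so none of the 9 genes was lost to the filter on dim probes. The files give codes and no descriptions, and PTR is also a usual code for peptide transporters, so the identity of the enzymes is read from the codes.

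Legume leaves and roots make isoflavonoids as defence compounds. Isoflavone synthase is a cytochrome P450 that moves the aryl ring of a flavanone and so commits carbon to isoflavonoids. Methyltransferases, a dehydratase, a 2'-hydroxylase and isoflavone reductase act between it and vestitone reductase. Vestitone reductase, a relative of the dihydroflavonol reductases, reduces vestitone on the way to the pterocarpan medicarpin. Pterocarpan reductase, a relative of isoflavone reductase, opens the pterocarpan ring to give vestitol.

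The samples were leaf RNA of Lotus japonicus germplasm MG20, grown in vitro on 1/2 MS medium. One group was wild type (3 arrays). The other was 3 independent transgenic lines labelled LjMyb14 overexpressing, with the Lotus ubiquitin promoter driving the gene constitutively (1 array per line). Each sample was hybridised to 1 Agilent array with a single dye, Cy3. The labels state neither plant age nor how many plants went into a sample, they list no vector-only control, and each line is a separate transformant. In whole leaf RNA, fewer cells of a type and less RNA per cell cannot be told apart.

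Values below are log2 of the processed intensity minus the 75th percentile of the same array, so 0 is the 75th percentile and each step of 1 is a doubling. The difference between wild type arrays 1 and 3 was below spot noise: its variance was 0.545 times what repeat spots of a probe predict, where the remaining 5 within-group pairs had 2.27 to 8.61. These 2 arrays were averaged and counted as 1 sample, which left 2 wild type samples and 3 lines. Differences were tested with limma across all 5039 tested probes and a call means a p under 0.05 after Benjamini-Hochberg adjustment. No rise of the labelled transgene was seen. The tested LjMYB14 probe was above background on 2 wild type and 3 line arrays and gave a log2 fold change of 0.11 (95% confidence interval -1.15 to 1.36). The other LjMYB14 probe was above background on 1 line array and was too dim to test, while LjMYB76a rose by 7.54 on the log2 scale. No source used here places the LjMYB14 probes relative to the transgene, so the lines are called by their label. No array name started with RBCS, CAB or LHC, so the leaf label was checked only with 6 YABBY genes of lateral organs. Their summed level was 2.80 to 2.86 in wild type and 2.65 to 2.88 in the lines. That of 53 LjMADS genes, a family with many floral members, was 4.38 to 4.56 in wild type and 4.15 to 4.33 in the lines, and its part in the results was not tested.

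VR1 was the only gene of the 9 that was called: it rose about 6-fold in all 3 lines at both of its probes. The other 8 genes were not called in either direction. Of these, CYP93C_chr4.CM0692.280.nc and PTR3 had negative log2 fold changes of -1.91 and -0.84, PTR1 had 0.63 and CYP93C17 had 0.35, each at its brighter probe. VR2, VR3 and the remaining CYP93C genes lay between -0.29 and 0.25. By probe, 2 of 18 were called higher and 0 lower, against 2.30% and 1.13% of all tested probes. At an unadjusted p under 0.05 there were 4 of 18, namely the probes of VR1 and of CYP93C_chr4.CM0692.280.nc, a share near the 19.9% of all tested probes. The median over the 18 probes was 0.02, beside -0.09 over all tested probes.

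**Figure D1:**
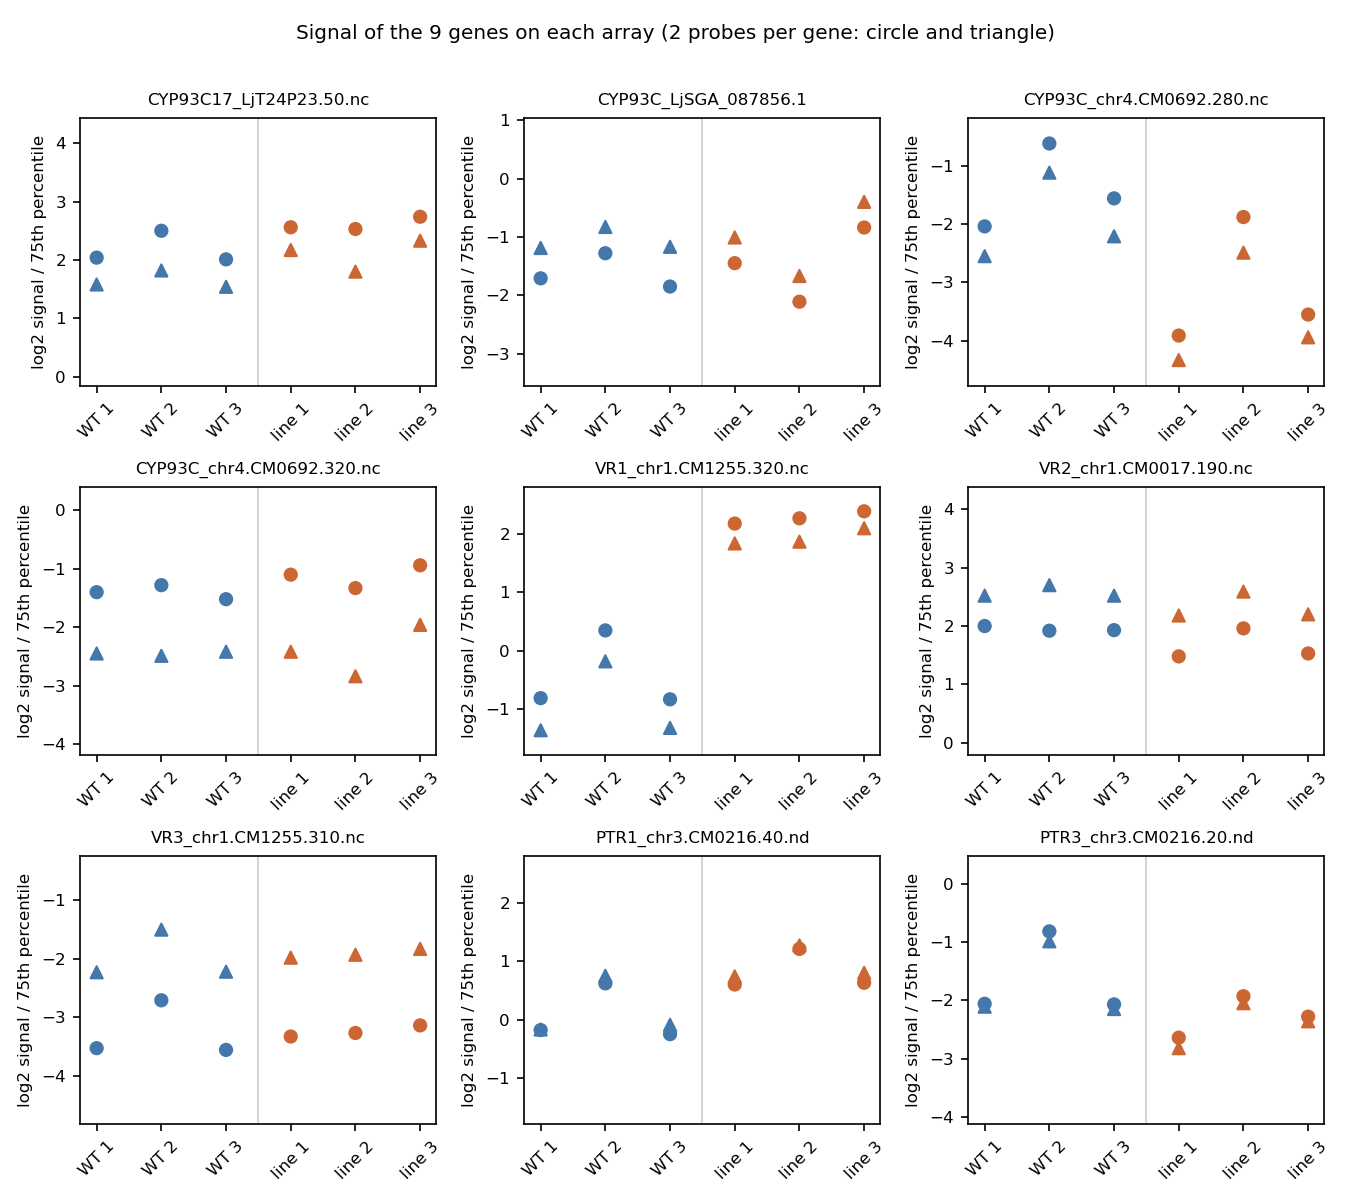
Signal of the 9 genes on each array, as log2 of intensity over the array's 75th percentile (vertical axis, the same span of 4.6 in every panel). Circle and triangle are the 2 probes of a gene, blue points are wild type arrays and orange points are lines; VR1 is the gene whose lines (1.84 to 2.39) all lie far above wild type (-1.36 to 0.35).

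VR1_chr1.CM1255.320.nc read -0.81, 0.35 and -0.83 at probe CUST_591 on wild type arrays 1, 2 and 3. The lines read 2.18, 2.27 and 2.39. All lines therefore lay above all wild type arrays, and the gap between the nearest arrays was 1.83. The mean rose from -0.23 ± 0.82 (SD, n = 2) to 2.28 ± 0.10 (SD, n = 3), a 5.72-fold rise with a 95% confidence interval of 3.01 to 10.9 (limma adjusted p = 0.0337). Its other probe, CUST_592, read -1.36, -0.18 and -1.32 in wild type and 1.84, 1.87 and 2.10 in the lines. There the rise was 6.49-fold (interval 3.39 to 12.4; limma adjusted p = 0.0288). The 3 lines differed from each other by far less than the wild type arrays did. Wild type array 2 lay 1.17 above the mean of arrays 1 and 3 at both probes, and it set the wild type SD. Of the 5039 tested probes, 61 had a log2 fold change at least as large as the lower VR1 probe, the VR1 probes included.

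Leaving out arrays kept the log2 fold change of VR1 between 1.93 and 3.28 but ended its call in 4 of 7 cases. Without wild type array 2 the log2 fold changes at the 2 probes were 3.10 and 3.28, with limma adjusted p of 0.0643 for each. Leaving out wild type arrays 1 and 3 gave 1.93 and 2.12, with adjusted p of 0.169 and 0.156. Without line 1 the adjusted p was 0.137 at both probes, and without line 3 it was 0.0705 and 0.0625. Without line 2 the call stayed. It also stayed without wild type array 1 or 3 alone, but the other array of that averaged pair remained, so these 2 cases removed no sample. Of the cases that removed a sample, only the one without line 2 thus kept the call. Wild type lay in row 2 of the slide with line 1, and lines 2 and 3 lay in row 1. Blocking on the row, which compares line 1 alone with wild type, gave log2 fold changes of 2.42 and 2.60 with limma adjusted p of 0.234 and 0.220.

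**Figure D2:**
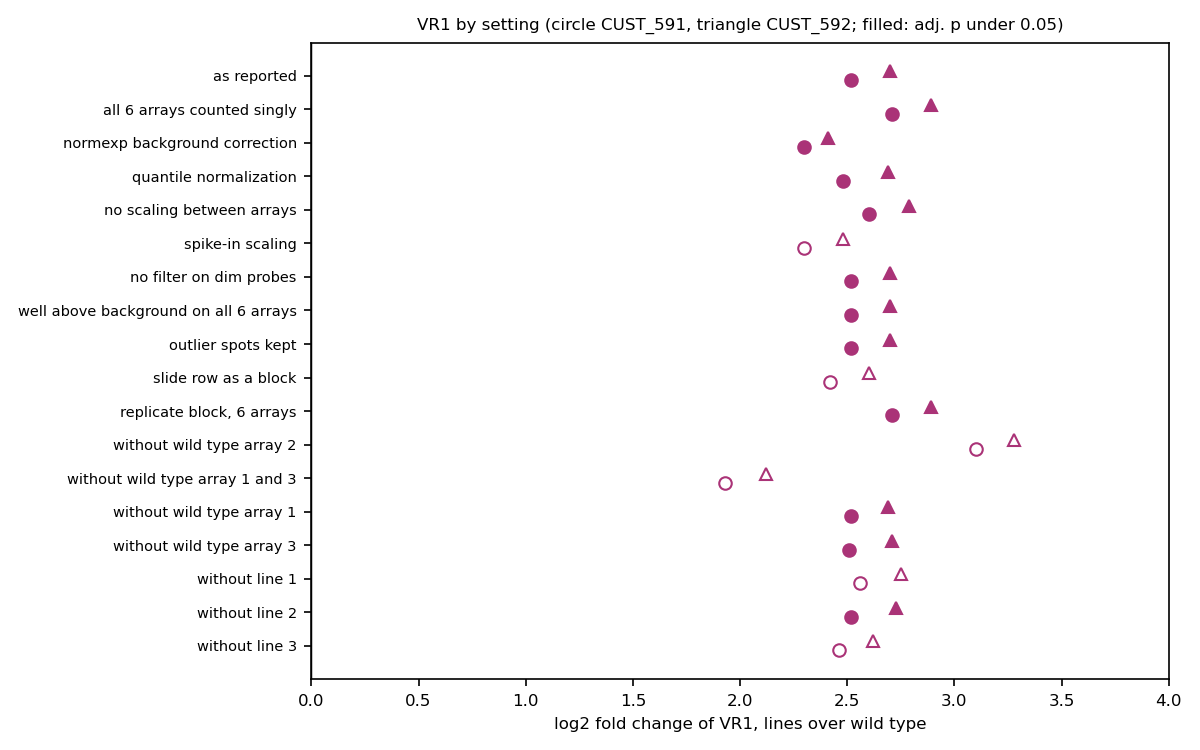
Log2 fold change of VR1, lines over wild type (horizontal axis, from 0), as reported and under each alternative; circle and triangle are probes CUST_591 and CUST_592, filled where the adjusted p is under 0.05. All values lie between 1.93 and 3.28, and the points are open for 4 of the settings that leave out arrays, for spike-in scaling and for the slide-row block.

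VR3_chr1.CM1255.310.nc carries the number next to VR1 on the same contig of chromosome 1, and it was not called. At its brighter probe, CUST_318, it read -2.23, -1.50 and -2.22 on wild type arrays 1, 2 and 3 and -1.98, -1.93 and -1.83 in the lines. The lines lay within the range of wild type. Its log2 fold change was -0.05 with a 95% confidence interval of -0.73 to 0.63, so a rise of more than 1.55-fold lies outside the interval. Its dimmer probe gave -0.12. Wild type array 2 was again the highest wild type array, by 0.73 and 0.83 at the 2 probes. The sign at CUST_318 depended on it: the log2 fold change was 0.31 when wild type array 2 was left out and -0.41 when arrays 1 and 3 were. The limit of 1.55-fold thus holds only with all wild type arrays in the fit.

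VR2_chr1.CM0017.190.nc, on another contig of chromosome 1, read 2.52, 2.70 and 2.52 in wild type and 2.18, 2.59 and 2.20 in the lines at its brighter probe, CUST_580. Lines 1 and 3 lay below all wild type arrays and line 2 lay among them. The log2 fold change was -0.29 at each probe, with an interval of -0.85 to 0.27 at CUST_580 (limma adjusted p = 0.552). Unlike VR1 and VR3, VR2 had wild type array 2 close to the others, 0.18 above them at this probe and -0.04 at CUST_579.

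The difference between the vestitone reductase codes was tested on the same arrays. VR1 minus VR3 was 1.41 to 1.85 in the 2 wild type samples and 4.16 to 4.22 in the 3 lines, so that their log2 changes differed by 2.56. VR1 minus VR2 was -3.34 to -2.35 in wild type and -0.31 to 0.19 in the lines, a difference of 2.81. For both pairs the exact two-sided permutation p was 0.1, which is the smallest that 10 splits of 5 samples allow, so 0.05 could not be reached (0.15 adjusted over the 3 pairs). For VR2 minus VR3 the difference of the log2 changes was -0.24 (exact permutation p = 0.5, also after adjustment), within the spread of the samples.

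PTR1_chr3.CM0216.40.nd was higher in the lines than on 2 of the 3 wild type arrays, and it was not called. At its brighter probe, CUST_52, it read -0.17, 0.75 and -0.09 on wild type arrays 1, 2 and 3 and 0.74, 1.27 and 0.80 in lines 1, 2 and 3. Line 2 was the highest, and lines 1 and 3 were level with wild type array 2. Wild type averaged 0.31 ± 0.62 (SD, n = 2) and the lines 0.94 ± 0.29 (SD, n = 3), a fold change of 1.55 with a 95% confidence interval of 0.857 to 2.79 (limma adjusted p = 0.383). The other probe gave 1.52. Here 1 array decided the size: at CUST_52, leaving out wild type array 2 gave a log2 fold change of 1.07 (adjusted p = 0.438), and leaving out the other 2 wild type arrays gave 0.19 (adjusted p = 0.950).

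PTR3_chr3.CM0216.20.nd went the other way, also short of the threshold. At its brighter probe, CUST_401, it read -2.06, -0.82 and -2.07 in wild type and -2.64, -1.93 and -2.28 in the lines. Wild type array 2 was the highest of the 6 arrays, and line 2 lay above wild type arrays 1 and 3. The log2 fold change was -0.84 with an interval of -1.92 to 0.24 (limma adjusted p = 0.361), and the other probe gave -0.85. The size depended on the same array: the log2 fold change was -0.22 when wild type array 2 was left out (adjusted p = 0.881) and -1.47 when arrays 1 and 3 were (adjusted p = 0.336). Line 2 was the highest of the lines for PTR1 and for PTR3, and also for VR2 and CYP93C_chr4.CM0692.280.nc.

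The 4 isoflavone synthase codes did not move together. CYP93C_chr4.CM0692.280.nc had the largest log2 fold change of the 4 in size. At its brighter probe, CUST_65, it read -2.04, -0.62 and -1.56 on wild type arrays 1, 2 and 3 and -3.91, -1.88 and -3.55 in lines 1, 2 and 3. Lines 1 and 3 lay far below wild type, while line 2 lay above wild type array 1. Wild type averaged -1.21 ± 0.84 (SD, n = 2) and the lines -3.12 ± 1.08 (SD, n = 3). The log2 fold change was -1.91 with a 95% confidence interval of -3.66 to -0.16 (limma adjusted p = 0.223). The dimmer probe, CUST_66, gave -1.83 (adjusted p = 0.214). Spots of CUST_65 disagreed on at least 1 array, with an SD between spots of up to 0.81, against at most 0.30 for the probes of VR and PTR. CUST_65 had 2 spots and each VR or PTR probe had 5, so these SDs rest on unlike numbers of spots.

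This gene was the only one of the 9 with a call in the lower direction under any alternative. Without line 2 its log2 fold changes were -2.53 and -2.38 and the adjusted p were 0.0393 and 0.0495. Without wild type array 2 they were -1.32 and -1.21 (adjusted p = 0.683 and 0.675).

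CYP93C17_LjT24P23.50.nc had positive values at both probes. At CUST_522 it read 2.04, 2.50 and 2.01 in wild type and 2.56, 2.53 and 2.74 in the lines. The lines lay above wild type, but by only 0.03 between the nearest arrays, and the groups overlapped at CUST_523. The fold changes were 1.27 and 1.33, with upper confidence limits of 1.90 and 2.03 (limma adjusted p = 0.486 and 0.423). Spots of these probes differed by an SD of at most 0.08, so the spread lay between arrays. At CUST_522 the log2 fold change was 0.59 when wild type array 2 was left out and 0.11 when arrays 1 and 3 were.

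CYP93C_LjSGA_087856.1 had its wild type arrays close together and its lines apart. At CUST_104 wild type read -1.19, -0.83 and -1.17, while lines 1, 2 and 3 read -1.01, -1.67 and -0.40. Line 2 was the lowest and line 3 the highest of all 6 arrays, and line 1 lay among wild type. The log2 fold change was -0.02 (interval -1.02 to 0.98), and 0.06 at CUST_103. CYP93C_chr4.CM0692.320.nc had the same order of lines at both probes: -1.10, -1.33 and -0.94 in lines 1, 2 and 3 at CUST_253, against -1.40, -1.28 and -1.52 in wild type. Its log2 fold changes were 0.25 and 0.05, with upper limits of 0.79 and 0.81.

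Both of these loci were also on the array under the code CYP93, with other probes that the choice of genes did not include. The CYP93_02_chr4.CM0692.320.nc probes gave log2 fold changes of 0.17 and 0.17, and the CYP93_08_LjSGA_087856.1 probes gave 0.03 and -0.01. At CUST_292 of the latter, lines 1, 2 and 3 read -0.98, -1.65 and -0.37, close to the values at CUST_104. No source used here gives the probe sequences, so shared stretches could not be looked for. Within the 9 genes, the 2 probes of a gene differed by at most 0.20 in log2 fold change, and some of the genes that were not called differed from each other by less than that. Close copies within each family may share signal.

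**Figure D3:**
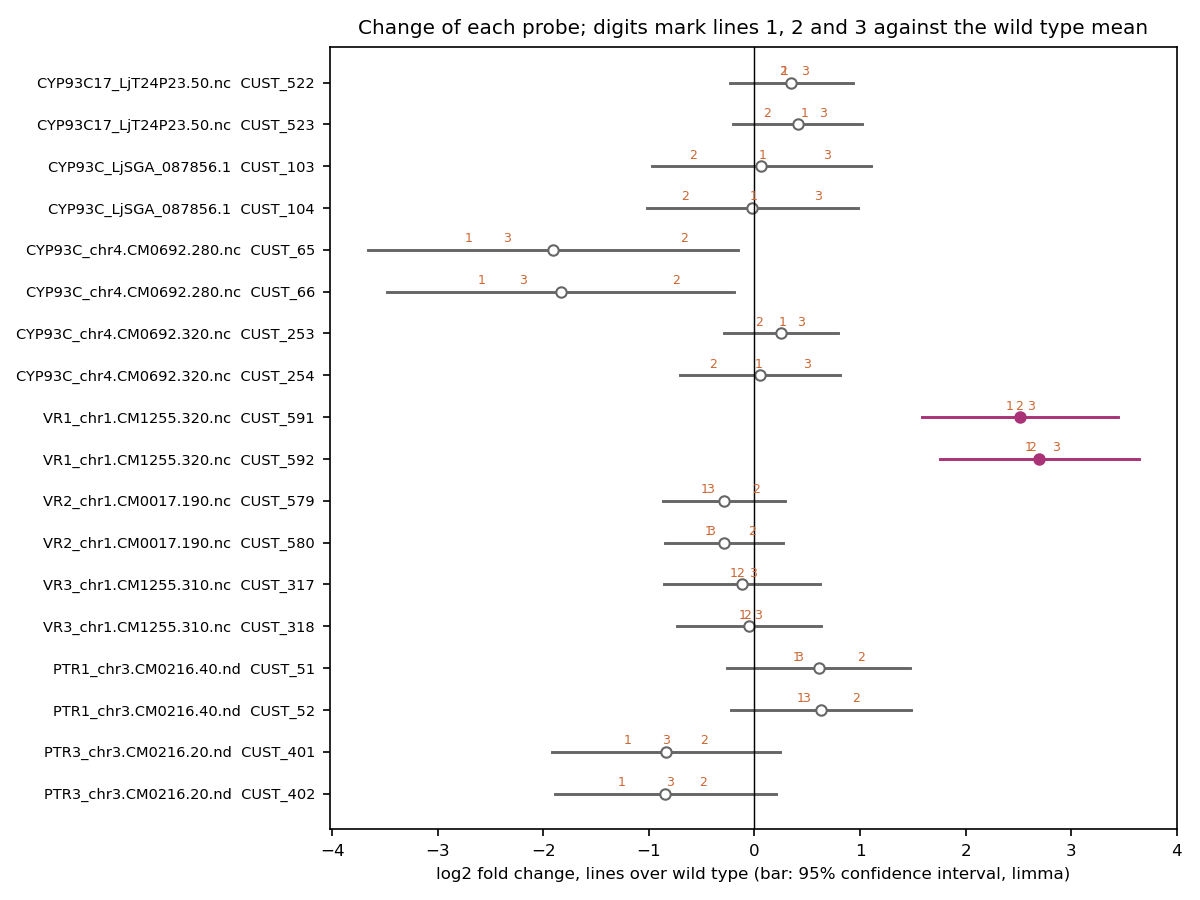
Log2 fold change of each of the 18 probes, lines over wild type (horizontal axis), with its 95% confidence interval from limma; filled points are called at an adjusted p under 0.05, and the digits 1, 2 and 3 mark each line against the wild type mean. Only the VR1 intervals (1.59 to 3.44 and 1.76 to 3.64) lie wholly above 0, those of CYP93C_chr4.CM0692.280.nc lie wholly below it, whose line digits are also the widest apart.

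Counted by overlap, all 3 lines lay above all 3 wild type arrays at 3 of the 18 probes, namely both probes of VR1 and 1 of CYP93C17. This is 15.7% of tested probes over the whole array. At 0 of the 18 probes did all lines lie below all wild type arrays, against 21.7% of tested probes.

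**Figure D4:**
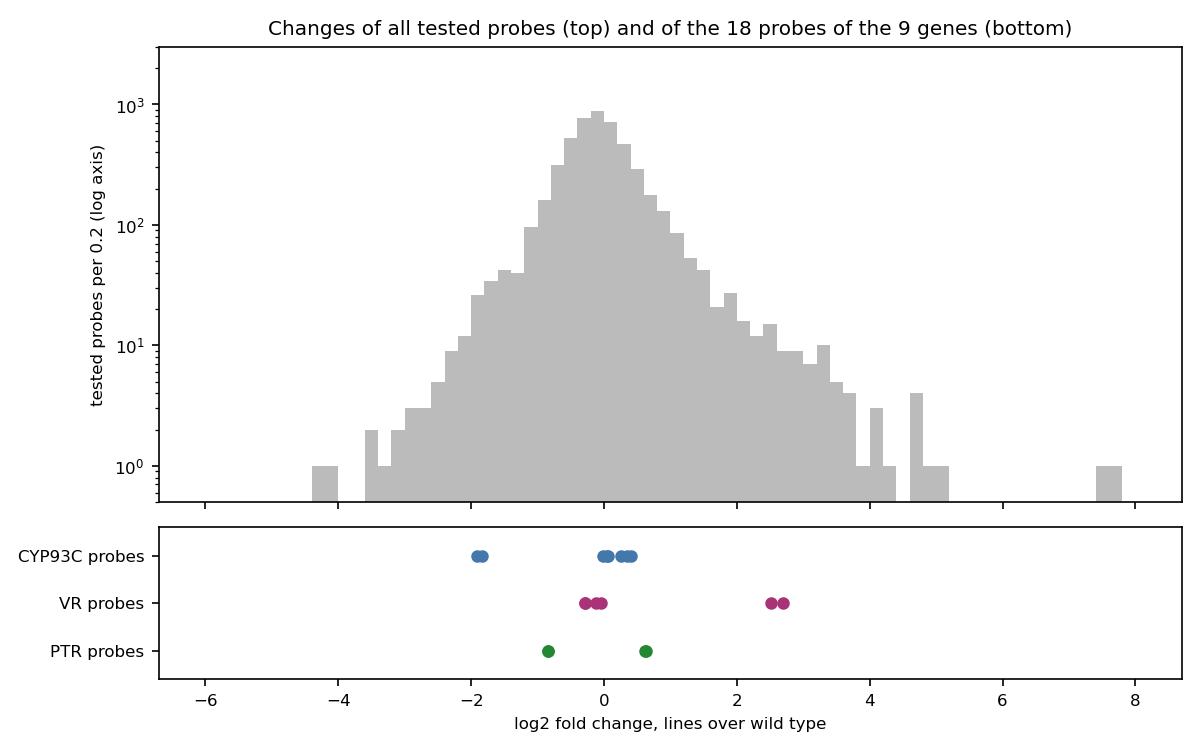
Top, number of tested probes per 0.2 of log2 fold change, lines over wild type (log axis). Bottom, the 18 probes of the 9 genes by code; VR1, at 2.52 and 2.70, lies in the upper tail, past the 95th percentile of all probes (1.16), CYP93C_chr4.CM0692.280.nc lies below the 5th percentile (-1.04) and the other genes lie between these percentiles.

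Wild type array 2 stood apart at most of these genes. It was the highest wild type array at 16 of the 18 probes, against 30.3% of all tested probes, and the median of its distance from arrays 1 and 3 was 0.78, against -0.09 over all probes. The distance was largest for PTR3, CYP93C_chr4.CM0692.280.nc and VR1, between 1.14 and 1.26, and smallest for CYP93C_chr4.CM0692.320.nc and VR2, between -0.05 and 0.18. Among other genes of the route, array 2 was the highest wild type array for 5 of 5 PKR and 19 of 28 CHS genes, with median distances of 0.67 and 0.32. It was also the highest for 6 of 7 HID and 4 of 6 CHR genes, with median distances of 0.13 and 0.11. Over all 111 tested genes of these codes it was the highest for 52, with a median distance of 0.01. For PAL, C4H or CYP73A and CoumLig genes the median distances were -0.19, -0.30 and -0.20. No label tells this sample from the other wild type samples.

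Neighbours on the same contigs or clones were looked at after the values of the 9 genes had been seen. On the contig of VR1 and VR3, DFOLR08_chr1.CM1255.280.nc, whose code is read as a dihydroflavonol reductase, had a log2 fold change of 0.21 (adjusted p = 0.723). IFR2_chr3.CM0216.30.nd is numbered between PTR3 and PTR1, and its probes gave 0.23 and 0.28 (adjusted p = 0.584 and 0.547). Farther along that contig, CHS03_chr3.CM0216.300.nc gave 0.04 and -0.13, and the transporter codes MDR032, MDR059 and MDR035 lay between -0.33 and 0.18. FMO1_01_chr1.CM0017.180.nc, next to VR2, gave -0.20 and -0.28. The gene numbered close to CYP93C17, 4Meth1_LjT24P23.70.nc, read 2.24, 2.75 and 2.23 in wild type and 3.65, 4.05 and 3.54 in the lines. All lines lay above wild type there, and its log2 fold changes of 1.26 and 1.19 were not called (limma adjusted p = 0.0819 and 0.0766). None of these 8 neighbours was called by limma, and VR1 was the only called gene on the 5 contigs or clones.

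The other enzymes of the route give the frame for the 9 genes. They were counted by code at the brightest tested probe of each gene, 111 of the 127 on the array, the rest being dim. Of these 111, 15 rose and 0 fell (41 and 4 at an unadjusted p under 0.05 in limma), and the median log2 fold change was 0.43. Over all 2487 tested genes, 2.21% rose and 1.09% fell (9.53% and 10.0% at an unadjusted p under 0.05), and the median was -0.09. In the general phenylpropanoid steps, 4 of 14 PAL, 3 of 6 C4H or CYP73A and 3 of 15 CoumLig genes rose. In the steps that make the chalcone and flavanone, 2 of 6 CHR genes rose and 0 of 28 CHS, 0 of 5 PKR and 0 of 6 CHI genes did (11, 1 and 1 higher at an unadjusted p under 0.05). Some called genes read nearly alike. On wild type array 1, PAL02, PAL03 and PAL04 read 4.4, 4.39 and 4.42. CHR04 and CHR05 each had a log2 fold change of 3.16. Whether such genes share signal was not tested, so the 15 may not be separate. Between isoflavone synthase and vestitone reductase, 1 of 7 HID, 1 of 8 CYP81E or I2H, 1 of 8 IFR and 0 of 8 7Methyl genes rose. HID, CYP81E or I2H and IFR thus had 1 called gene each, while 7Methyl, CYP93C and PTR had none. The 7Methyl code was the only methyltransferase code counted. The neighbour 4Meth1_LjT24P23.70.nc, given above with log2 fold changes of 1.26 and 1.19 and not called, was outside these counts. The HID call, that of HID3, lay at the edge of the threshold (limma adjusted p = 0.0499), and the other HID3 probe was not called (0.0538). The medians were -0.13 for HID, -0.60 for CYP81E or I2H, 0.29 for IFR and -0.12 for 7Methyl. With VR, 1 of 3 rose and the median over its 6 probes was -0.08. These codes, and the results of most of them, were known when the 9 genes were chosen.

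For each code, the gene with the smallest p is given. CYP73A_LjSGA_082453.1, a cinnamate 4-hydroxylase, rose by 3.22 on the log2 scale, and CHR05_CM1092.80.nc, a chalcone reductase, by 3.16. CYP81E_chr2.CM0250.70.nc, of the 2'-hydroxylase family, rose by 1.90, HID3, a dehydratase code, by 1.73 and IFR4_, an isoflavone reductase code, by 1.69. VR1, at 2.52, lay between the first pair and these 3. PAL04_chr1.CM0033.850.nc, a phenylalanine ammonia-lyase, rose by 1.22 and CoumLig16_chr6.CM0057.160.nc, read as coumarate ligase, by 1.44. CHS08_chr2.CM0018.1080.nc, CHI04_chr5.CM0260.400.nc and PKR3_chr2.CM0191.480.nc had 1.23, 1.02 and 0.69 and were not called (limma adjusted p = 0.0568, 0.0678 and 0.222). 7Methyl2_chr2.CM0191.600.nc had -1.35 (adjusted p = 0.0863).

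**Figure D5:**
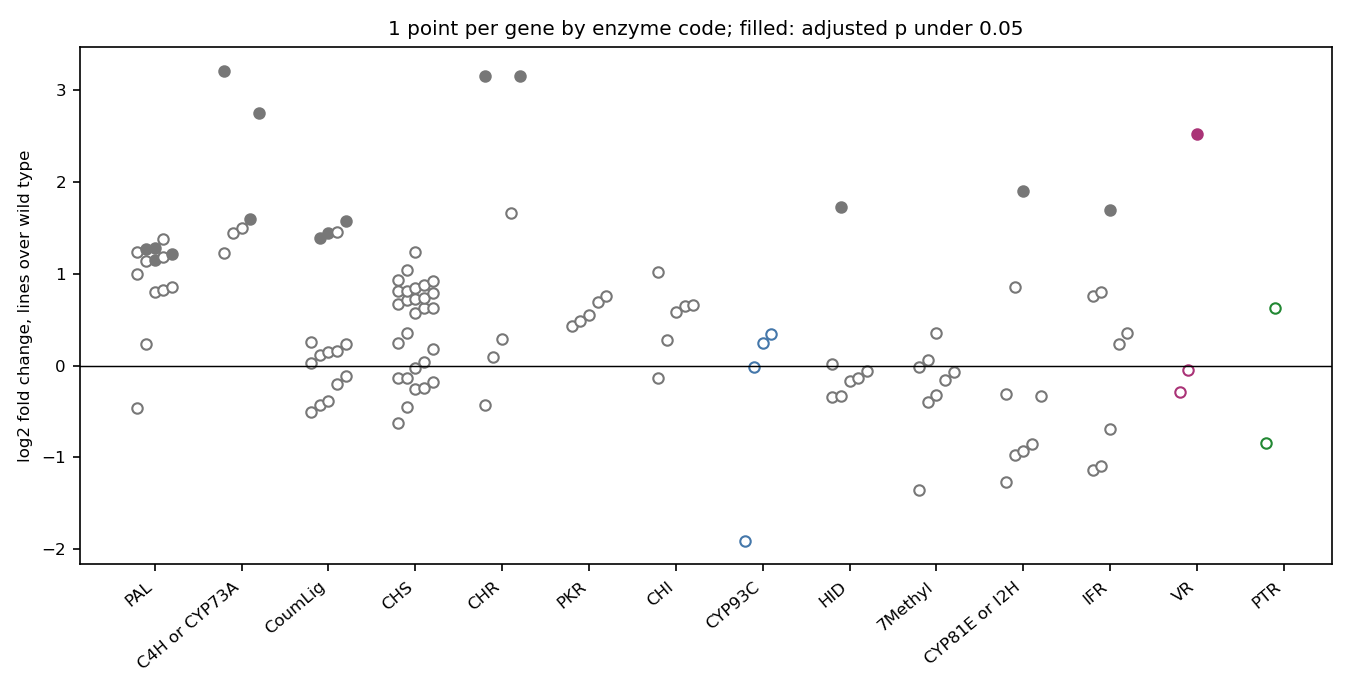
Log2 fold change, lines over wild type (vertical axis), of each tested gene at its brightest probe, by enzyme code. The codes run from PAL to PTR, and the order of those between CYP93C and VR is not meant as the order of steps. Coloured points are the 9 genes, grey points the other codes, filled where the adjusted p is under 0.05. All called genes stand above 1, VR holds 1 at 2.52, and CHS, PKR, CHI, CYP93C, 7Methyl and PTR hold none.

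The genes whose pattern was most like that of each gene were sought among 2478 others. Likeness was the root mean square difference over the 6 arrays, after the wild type mean was subtracted from each gene, and it was taken at 1 probe per gene, the brightest. VR1 was closest to LjERF41, an AP2/ERF transcription factor code (0.113), and to UGT71B_LjSGA_025093.1, a glycosyltransferase (0.125). LjERF41 stood 2.29, 2.57 and 2.64 above its wild type mean in lines 1, 2 and 3, where VR1 stood 2.42, 2.51 and 2.62 above, and wild type array 2 was 0.68 above for LjERF41. The other probe of LjERF41, CUST_1116, had a log2 fold change of 3.46 and that of UGT71B_LjSGA_025093.1, CUST_148, had 2.99, against 2.50 and 2.42 at the probes compared, so the match rests on 1 probe of each. No other gene was within 0.25 of VR1. PTR1 was closest to CHS18_chr2.CM0018.710.nc (0.0910) and CHS16_chr2.CM0018.1250.nc (0.116), among 29 genes within 0.25. CHS18_chr2.CM0018.710.nc stood 0.61, 0.95 and 0.47 above its wild type mean in the lines, and PTR1 stood 0.44, 0.96 and 0.49 above. The other probes of CHS18_chr2.CM0018.710.nc and CHS16_chr2.CM0018.1250.nc had smaller log2 fold changes, 0.46 and 0.25 against 0.68 and 0.63.

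Likeness was not scaled to the size of a gene's values. Genes with large changes or spread, VR1 included, therefore tend to have few others within 0.25, and flat genes many. CYP93C_chr4.CM0692.280.nc was nearest to LjbHLH73 (0.251) and LjMYBother19 (0.334), with 0 genes within 0.25. PTR3 was nearest to UGT73B_chr4.CM0227.640.nc (0.214) and CYP711ALT_1_ntc (0.262). The other 5 genes had more, from 70 genes within 0.25 for CYP93C_LjSGA_087856.1 to 448 for VR2. For these the nearest were LjGRAS34 and CYP71D_LjT11K12.30.nc for CYP93C_LjSGA_087856.1, LjERF16 and a gene on clone LjT02J13 for CYP93C17, and LjZF-C2H2-10 and MDR069_LjT10F13.130.nd for CYP93C_chr4.CM0692.320.nc. VR2 was nearest to MDR035_chr3.CM0216.690.nc and MDR086_chr1.CM1409.340.nd, and VR3 to F3H07_chr5.CM0494.240.nd and LjERF8. With 6 arrays such likeness is a description of these arrays.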

How the data were processed

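Per the file headers, the authors scanned 1-colour Agilent arrays on 1 slide and read them with Feature Extraction (version 10.7.3.1, per the submitters' processing notes). Each deposited intensity had its background subtracted and was detrended within its array, with no scaling across arrays. The series' value table repeated that intensity in 91068 of 91068 cells (within 0.01%), with median log2 values of 5.54 to 6.04.

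From these files, log2 intensity minus the array's 75th percentile (364 to 404) over 14642 non-control spots was computed. Of these spots, 71.7% to 78.0% were well above background and 0 saturated. Outlier-flagged spots, 32 to 78 on an array, were dropped and the spots of a probe averaged. Testing took the 5039 of 6358 probes for which 3 or more arrays had a share of 0.5 or more of the spots well above background. Limma 3.58.1 (R 4.3.3) was run on 5 samples, with 3 residual and 2.54 prior degrees of freedom, so the number of arrays limits the precision. The series' design text calls the wild type samples biological replicates. Simulated data with independent noise were used only to check the fit for bias in the log2 fold change. They held no shared effect of array, slide row or line, so they could not show such effects. Genes were named by code, plus the smallest p per code of the route and the 2 most alike genes per gene. The genes and lists were chosen with earlier results of these data known. No array name matched the RefSeq gene table (0 of 3469), so neither positions nor sequences are given. Contigs and clones are those within the names.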

Additional observations from a re-analysis of the deposited data

How the results depend on the processing

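Of the values of the 18 probes under 17 alternatives each, 270 kept their direction and side of the threshold. VR1 kept its direction throughout; its call ended with spike-in scaling (log2 fold changes 2.30 and 2.48, adjusted p = 0.202 and 0.175), which moved the median of all probes from -0.09 to -0.31, with blocking on the slide row, and in the settings without arrays given above. The spike-in probes of line 2 lay 3.87 above its 75th percentile, where those of the remaining arrays lay 2.69 to 3.13 above theirs. A lone sample was assumed to vary like the other group. Leaving out arrays gave 0 to 2 called member probes in each direction, 4 to 272 probes higher and 0 to 167 lower on the whole array, and 0 to 27 higher and 0 to 1 lower of the route genes (116 and 57, and 15 and 0, as reported). In the same settings the difference VR2 minus VR3 ranged from -0.52 to 0.03. Under spike-in scaling and under slide-row blocking, 0 member probes were called, 13 and 2 probes were higher and 9 and 0 lower, and 1 and 0 route genes rose (limma; 372 and 618 probes at an unadjusted p under 0.05). With all 6 arrays counted singly 342 were higher and 297 lower, with 36 and 2 route genes. Lower calls were 37 without scaling between arrays and 24 without the filter on dim probes. Normexp correction, run on the median signal since no mean signal was used here, gave 27 route genes higher, and counting every probe gave 36.

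The replicate numbers do not pair the samples: deviations of same-numbered samples correlated at 0.01, 0.17 and 0.07, and not every sample correlated best with its own number. With the replicate block on 6 arrays, 235 probes were higher and 138 lower, with 34 and 1 route genes; 2 member probes were lower, those of CYP93C_chr4.CM0692.280.nc (-1.71 and -1.62, adjusted p = 0.0235 and 0.0188).

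Values near 0 changed sign. CYP93C_LjSGA_087856.1 gave -0.15 at CUST_103 with spike-in scaling and -0.25 to 0.39 with arrays left out. At CUST_104 it gave 0.04 with 6 arrays and with the replicate block, 0.06 with quantile normalization, 0.07 without scaling and -0.33 to 0.30 with arrays left out. CYP93C_chr4.CM0692.320.nc gave -0.17 at CUST_254 with spike-in scaling and -0.17 to 0.27 with arrays left out. VR3 gave 0.02 and 0.07 with 6 arrays and with the replicate block, 0.01 and 0.03 with quantile normalization, 0.04 at CUST_318 without scaling, and -0.53 to 0.30 and -0.41 to 0.31 with arrays left out. The cause of these changes was not tested.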
